A study of Mus musculus with 12 samples.

Results

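The V6.5 mouse embryonic stem cell line was compared with lung endothelial cells from CD47 null mice, gene by gene, on 6 of the 12 arrays of the series. The ESC group held 3 arrays of V6.5 cells, grown with leukemia inhibitory factor (LIF) at 1000 IU/ml in medium holding 15% serum of fetal calves, LIF being the cytokine that keeps mouse stem cells undifferentiated; the labels give no strain or Cd47 genotype for the line. The null_EC group held 3 arrays of lung endothelial cells, strain C57Bl/6 and genotype CD47 null, grown in Endothelial Growth Medium-2. Cell type and medium therefore differed together, and strain and Cd47 genotype may have differed as well. The signal of the Y-linked genes given below also differed between the groups. The parts of these factors cannot be told apart. The other 6 arrays, 3 of wild-type C57Bl/6 lung endothelial cells (WT_EC) and 3 of embryoid bodies (null_EB) that formed in 24 to 36 h without serum from CD47 null endothelial cells passaged for 6 months, served to pick the probe set of each gene, as levels set beside the comparison and in an alternative fit to all 12 arrays. RNA was read on Affymetrix whole-transcript arrays as log2 signals, and all 19938 genes with a probe set of their own were tested. Nothing in the labels says whether the 3 arrays of a group came from separate cultures or animals, so the p-values measure the spread between these samples, which may be technical.

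Embryonic stem cells keep the ability to form every tissue of the body through a circuit of transcription factors, led by Pou5f1 (Oct4), Sox2 and Nanog, which sustain each other's expression. In mouse cells LIF acts on this circuit through Stat3, while FGF4 made by the cells themselves pushes them to differentiate. Stem cells also cycle fast with a short G1 phase, carry an open chromatin and express some genes otherwise known from germ cells. Endothelial cells line vessels, are held together by VE-cadherin (Cdh5) and Pecam1, and respond to vascular growth factors through Kdr and the Tie receptors. CD47 is a surface receptor for thrombospondin-1 and for SIRP alpha.

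The groups differed in most genes, and the larger differences were more often increases than decreases in ESC. Calls rest on an adjusted p below 0.05 (limma, Benjamini-Hochberg over all genes), and calls that were also at least 2-fold are counted apart here. Of 19938 genes, 13304 were called, 5821 of them (29.2%) higher and 7483 (37.5%) lower in ESC. At least 2-fold as well were 1896 higher (9.51%) and 1440 lower (7.22%), so that 56.8% of these 3336 genes were higher in ESC. In all 3336 the 3 ESC arrays and the 3 null_EC arrays did not overlap. The same held for 13039 of the 13304 called genes, so it follows largely from the calls and adds no support to them. The share over all 19938 genes was not counted. Past 8-fold there were 269 higher and 90 lower genes, and past 32-fold 27 higher and 10 lower. The median difference of all genes was -0.089 (log2), and the split depends on scaling: with the median of the housekeeping genes set equal on all arrays, which moved the median of all genes to -0.28, 1502 genes were higher and 1949 lower at 2-fold, or 43.5% higher, and with the median of all genes set equal 50.4% were higher. The 21 housekeeping genes differed by a median of -0.035 in the main fit and of -0.23 with their array median set equal. With the array median of all genes set equal, the median difference of all genes was -0.18. Both scalings thus widened these median differences, and which scaling is right was not tested. The counts of each gene list below are to be read against the 9.51% and 7.22% of all genes. The list medians kept their sign under both scalings except those of the Myc network, metabolism, CD47 pathway and cleavage-stage lists, which lay near 0.

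Arrays of one group agreed closely: the correlation across genes was lowest at 0.996 between arrays of the same group and highest at 0.897 between groups, over genes that do not stand for replicates. Gene SDs over 3 arrays had a median of 0.0847 in ESC and 0.0652 in null_EC. No detection calls were used, and a group mean below 8.02, the median of all values on the 6 arrays, is called low signal here.

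**Figure D1:**
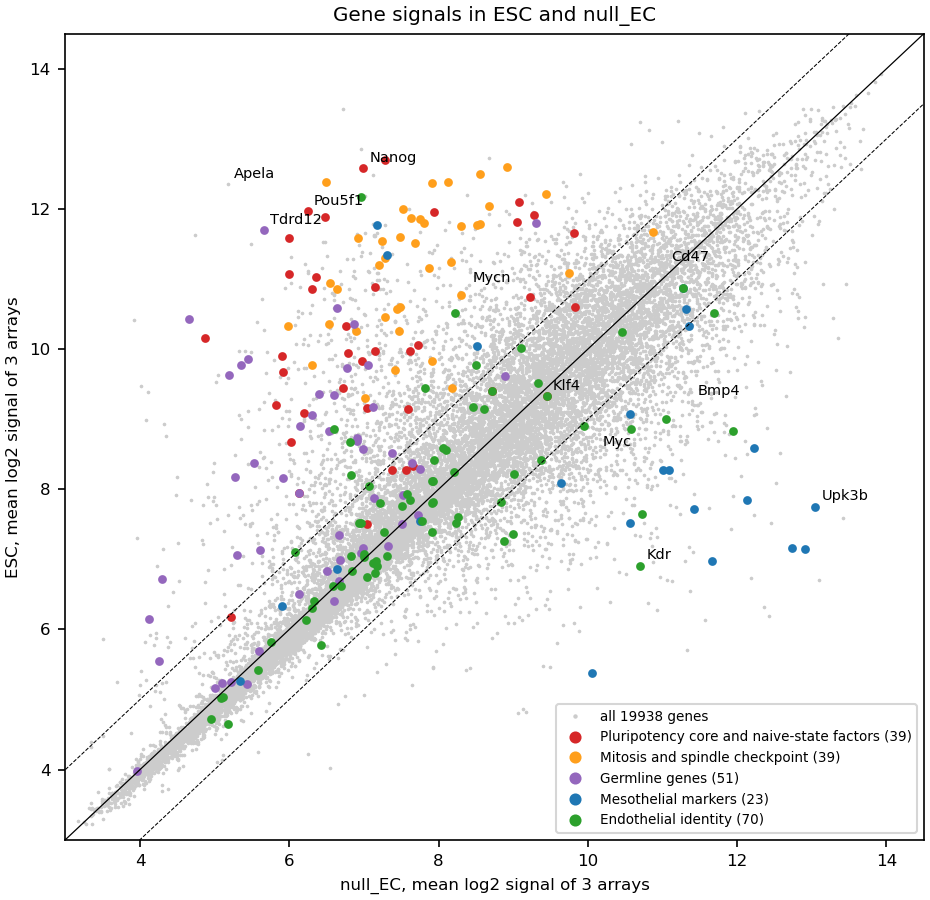
Mean log2 signal of 3 ESC arrays against that of 3 null_EC arrays for each of 19938 genes (grey), with the members of 5 gene lists in colour. Dashed lines mark a 2-fold difference; most pluripotency and mitosis genes and many germline genes lie above the upper line, most mesothelial genes below the lower one, and most endothelial genes near the diagonal at low signal.

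The pluripotency factors formed one of the most one-sided groups. Of 39 measured factors, 31 were higher in ESC at 2-fold or more, 0 were lower, and the median difference was 2.81; 38 of the 39 were called higher at any size. Pou5f1, the octamer-binding factor at the centre of the circuit, had signals of 11.94, 12.01 and 11.96 on the ESC arrays and 6.14, 6.34 and 6.25 on the null_EC arrays. The ESC values were tight and far above those of null_EC (52.8-fold higher, log2 difference 5.72, SE 0.0676, adjusted p = 1.25e-12). Nanog, the homeodomain factor that lets stem cells renew without LIF, stood at 12.54, 12.60 and 12.60 in ESC and at 7.06, 6.98 and 6.93 in null_EC (48.4-fold higher, log2 difference 5.60, SE 0.0612, adjusted p = 1.06e-12). Sox2, the partner of Pou5f1 on DNA, stood at 10.98, 11.35 and 10.75 in ESC and 6.21, 6.43 and 6.42 in null_EC (log2 difference 4.67, SE 0.13, adjusted p = 2.05e-10). The groups did not overlap for any of these 3 factors, and all 3 had low signal in null_EC. They had low signal in the other groups as well, with Pou5f1 at 6.72, 6.15 and 6.13 in WT_EC and Nanog at 6.65, 6.77 and 6.74 in null_EB.

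Among the other factors, Otx2 (log2 difference 5.59), a homeodomain factor of the step from naive to primed cells, was higher, as were Dppa5a (5.42), an RNA-binding protein of stem and germ cells, and Utf1 (5.41), a chromatin factor of undifferentiated cells. Naive-state factors were higher too: Esrrb (3.58), an orphan nuclear receptor, Zfp42 (3.76), known as Rex1, and Nr0b1 (4.56), known as Dax1. The RNA-binding proteins that block let-7 maturation, Lin28a (2.36) and Lin28b (3.37), were both higher. Called higher but under 2-fold were 7 factors, among them Klf2 (0.69), Tbx3 (0.89), Tfcp2l1 (0.78) and Gbx2 (0.68), all tied to the naive state. Tfcp2l1 had a clear signal in null_EC, at 9.94, 9.70 and 9.82, against 10.58, 10.66 and 10.56 in ESC.

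The 4 factors used to reprogram somatic cells did not move as a set. Klf4 stood at 9.31, 9.29 and 9.37 in ESC and 9.54, 9.20 and 9.59 in null_EC, which overlap, and was not called (log2 difference -0.12, SE 0.096, adjusted p = 0.279), though it was without null_EC replicate 2 (-0.24, adjusted p = 0.0136). Myc, the growth-promoting factor, was lower in ESC, at 8.43, 8.64 and 8.53 against 10.18, 10.02 and 10.14 (3-fold lower, log2 difference -1.58, SE 0.0734, adjusted p = 1.01e-08). Its relative Mycn went the other way, at 10.86, 11.04 and 10.72 in ESC and 8.50, 8.21 and 8.41 in null_EC (5.65-fold higher, log2 difference 2.50, SE 0.0953, adjusted p = 2.22e-09). Myc and Mycn did not overlap between the groups in either case. In the Myc network as a whole 2 of 13 genes were higher at 2-fold, Mycn and the Max-binding repressor Mga (1.19), and 2 were lower, Myc and the antagonist Mxd4 (-1.13); the shared partner Max differed by -0.0072.

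**Figure D2:**
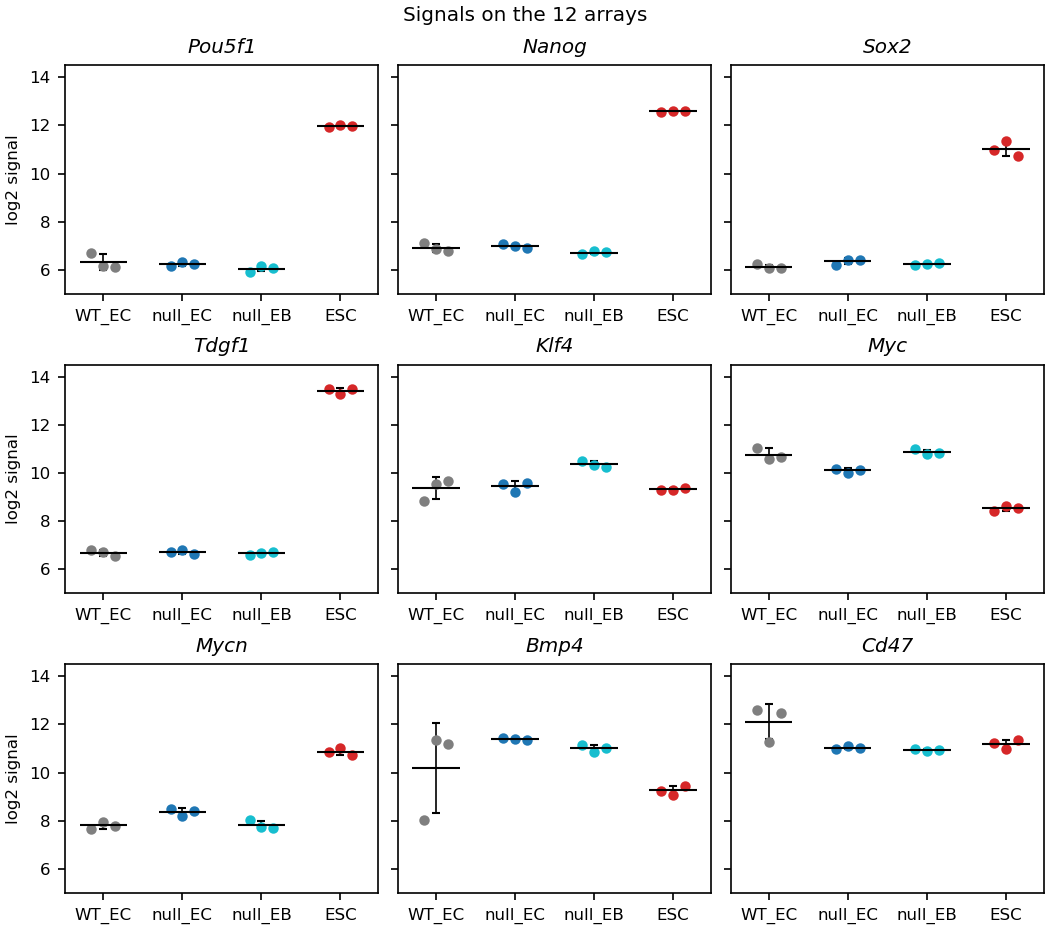
Log2 signal on each of the 12 arrays for 9 genes, with the mean (line) and SD (bar) of the 3 arrays of a group. Pou5f1, Nanog, Sox2 and Tdgf1 are high in ESC alone, Klf4 overlaps between ESC and null_EC, Myc is lowest in ESC, and Cd47, on the probe set kept, lies at like levels in ESC and null_EC.

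Surface and secreted products tied to pluripotency followed the factors, with 17 of 24 higher at 2-fold, 1 lower and a median of 2.51. Tdgf1 (Cripto), the co-receptor of Nodal, gave 13.48, 13.30 and 13.50 in ESC and 6.72, 6.79 and 6.66 in null_EC, a 104-fold difference (log2 difference 6.70, SE 0.0724, adjusted p = 1.06e-12). Its pathway partners were higher as well: the ligand Nodal by 2.36, the feedback inhibitors Lefty1 by 2.66 and Lefty2 by 3.19, and Gdf3 by 3.31. Epcam (5.47) and E-cadherin, Cdh1 (4.60), the adhesion molecules of compact stem cell colonies, stood among the largest differences. Alpl, the alkaline phosphatase used to stain stem cell colonies, was 3.81-fold higher (log2 1.93). Fut9 (3.73), the enzyme that builds the SSEA-1 antigen, was higher, while Fut4, another fucosyltransferase, was called lower (-0.40) with low signal in both groups. Bmp4 was the member that was lower in ESC, at 9.25, 9.07 and 9.46 against 11.45, 11.39 and 11.34 (log2 difference -2.13, SE 0.0911, adjusted p = 5.23e-09).

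The largest single increase was Apela, a peptide hormone of early embryos that binds the apelin receptor. It stood at 12.36, 12.36 and 12.36 in ESC and 5.13, 5.19 and 5.19 in null_EC, a 146-fold difference (log2 difference 7.19, SE 0.0565, adjusted p = 2.16e-13), and the 3 ESC values spread by an SD of only 0.00166. Lncenc1, a long non-coding RNA of naive stem cells, differed by 5.89 and Bex1 by 6.01, the latter with a wide spread in null_EC (6.11, 5.35 and 5.01). The zinc finger genes Zfp980 (6.88), Zfp640 (6.49) and Zfp979 (5.45) also ranked among the 15 largest increases. These belong to a family of near-identical copies, and probe sets that match several of them at once were also higher (by 6.36 for one shared by Zfp640 and 5.06 for one shared by Zfp980 and Zfp979), so which copy gave the signal is uncertain.

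Germline genes, many of which are silenced by promoter methylation in somatic cells, were higher in 29 of 51 cases, with 0 lower and a median of 1.59, and 49 of the 51 had low signal in null_EC. The piRNA pathway, which silences transposons in germ cells, gave Tdrd12 at 11.69, 11.75 and 11.67 in ESC and 5.64, 5.57 and 5.77 in null_EC (65.9-fold higher, log2 difference 6.04, SE 0.0679, adjusted p = 1.08e-12). Mael (4.44) and the helicase Ddx4, known as Vasa (4.42), went with it. Of the meiotic chromosome axis, Sycp3 stood at 10.29, 10.38 and 10.61 against 4.70, 4.67 and 4.61 (log2 difference 5.77, SE 0.0825, adjusted p = 3.27e-12). Other members of the same processes had low signal in both groups: Spo11, which cuts meiotic DNA, differed by -0.22, and Nanos2 by -0.18, Tdrd9 by 0.019 and Asz1 by 0.033, all under 2-fold. Dppa3 (Stella, 1.82), Dazl (2.25) and Prdm1 (2.75), which mark or specify primordial germ cells, were higher. Dppa3 reached a mean of 7.95 ± 0.0808 (SD, n = 3) in ESC, just under the low-signal value. Genes of the early cleavage-stage embryo gave 0 of 13 in either direction at 2-fold, all with low signal in both groups.

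The cell cycle genes had the highest shares of increases of the lists examined. Of 44 DNA replication genes, 43 were higher at 2-fold (median 2.24) and of 39 genes of mitosis and the spindle checkpoint 38 (median 3.47), with 0 lower in either; the exceptions were the ribonucleotide reductase subunit Rrm1 (0.15, no longer called when any 1 of the 6 arrays was left out) and the checkpoint protein Bub3 (0.80). The checkpoint kinase Bub1 stood at 12.49, 12.25 and 12.42 in ESC and 6.11, 6.99 and 6.37 in null_EC (59.4-fold higher, log2 difference 5.89, SE 0.178, adjusted p = 3.88e-10), with a wide spread in null_EC. Mki67, the proliferation marker, was 11.84, 11.81 and 11.75 against 7.66, 8.16 and 7.59 (log2 difference 3.997, SE 0.127, adjusted p = 5.73e-10). Pole, the leading-strand polymerase, was higher by 4.14, the primase Prim1 by 3.95 and Orc1, which marks origins, by 3.92; Mcm3 and Mcm5 of the replicative helicase were higher by 3.73 and 3.66 and Pcna, the sliding clamp, by 1.96. Proliferation itself was not measured. The median of the mitosis list ran from 11.33 to 11.37 over the ESC arrays, 7.50 to 7.995 over null_EC, 7.74 to 8.23 over null_EB and 9.10 to 9.63 over WT_EC, so null_EC and null_EB overlapped and lay below the other groups.

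Because both lists moved almost as a whole, their promoters were searched for cell cycle motifs, and one promoter of each is printed here (RefSeq, GRCm38.p6, 250 bases before to 50 after the annotated start, 5′ to 3′ on the strand of the gene). Capitals mark matches on either strand to the E2F motif (TTTCCCGC or TTTGGCGC) in Mcm3, at chr1:20820263-20820562 on the minus strand, and to the cell cycle homology region (TTTGAA) in Kif11, the spindle motor, at chr19:37376132-37376431 on the plus strand.
Mcm3: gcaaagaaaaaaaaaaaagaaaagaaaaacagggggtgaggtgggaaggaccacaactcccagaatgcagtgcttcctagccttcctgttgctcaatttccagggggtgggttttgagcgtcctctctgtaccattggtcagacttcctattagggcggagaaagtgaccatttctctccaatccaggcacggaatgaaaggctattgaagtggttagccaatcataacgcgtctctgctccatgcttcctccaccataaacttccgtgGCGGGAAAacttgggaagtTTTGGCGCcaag
Kif11: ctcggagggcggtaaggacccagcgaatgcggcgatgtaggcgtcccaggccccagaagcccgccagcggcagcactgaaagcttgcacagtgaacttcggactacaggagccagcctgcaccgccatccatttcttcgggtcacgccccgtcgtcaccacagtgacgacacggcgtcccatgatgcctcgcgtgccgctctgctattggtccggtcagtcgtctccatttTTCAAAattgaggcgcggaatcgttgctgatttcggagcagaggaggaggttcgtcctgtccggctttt
Both genes were picked from list members that were higher in ESC at 2-fold and held the motif, so neither property is a result. Kif11 was higher by 4.48, with 12.09, 11.91 and 12.01 in ESC against 7.40, 8.09 and 7.09 in null_EC. In neither window do matches overlap. Of the tested genes 15614 had such a window, and a window was counted once however many matches it held. The E2F motif stood in 11 of 36 replication windows (30.6%), in 0 of 32 mitosis windows and in 2.32% of all. The shorter TTTGAA stood in 23 of 32 mitosis windows (71.9%), 4 of 36 replication windows (11.1%) and 15.2% of all. The box CCAAT, searched on both strands, was in 75% of mitosis, 63.9% of replication and 38.2% of all windows. Germline promoters, searched as well, held the E2F motif in 4 of 41 windows (9.76%), or 4 of the 22 whose genes were higher at 2-fold (18.2%), and the germline E-box TCACGTGA in 0 of 41 against 1.35% of all. A match is a run of letters only, and no binding was measured.

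Of the G1 regulators 8 of 25 were higher and 3 lower. Cyclin E1, Ccne1, which in stem cells drives entry into S phase, stood at 11.98, 11.87 and 12.01 against 7.93, 7.98 and 7.90 (16.2-fold higher, log2 difference 4.02, SE 0.0626, adjusted p = 5e-12), Fbxo5, the inhibitor of the anaphase-promoting complex, was higher by 3.98, Ccne2 by 2.95 and the phosphatase Cdc25a by 2.36. The CDK inhibitor Cdkn2c (-2.12), the pocket protein Rbl2 (-1.55) and cyclin D2, Ccnd2 (-1.20), were lower. Cyclin D1, Ccnd1, was higher, by 1.85, the inhibitor Cdkn2a stayed under 2-fold (0.17), and Cdkn1b was called lower by -0.55 on the probe set kept and by -1.22 on its other one. Ribosome biogenesis genes gave 19 of 44 higher and 0 lower (median 0.87), led by the pseudouridine synthase Dkc1 (2.49); with the housekeeping median equal, 13 were higher at 2-fold. Telomere genes gave 10 of 17 higher and 0 lower, among them the reverse transcriptase Tert (1.71, adjusted p = 2.91e-09), Terf1 (2.73), which binds the repeats, and Rif1 (2.63).

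Chromatin regulators differed gene by gene. Of 19 genes that write, read or remove DNA methylation 10 were higher and 3 lower. The dioxygenase Tet1 was at 12.45, 12.50 and 12.52 in ESC and 7.16, 7.11 and 7.11 in null_EC (41.3-fold higher, log2 difference 5.37, SE 0.0575, adjusted p = 1.06e-12), whereas Tet3, the form of oocytes, was lower (-1.79) and Tet2 was higher by 1.09. The de novo methyltransferase Dnmt3b (3.13) and its cofactor Dnmt3l (3.94) were higher, as were the maintenance factors Uhrf1 (3.29) and Dnmt1 (2.04) and the remodeller Hells (4.47); Dnmt3a stayed under 2-fold, at 0.93. Of 30 Polycomb genes, 10 were higher and 3 lower. Those higher included the methyltransferase Ezh2 (2.28) and its cofactors Jarid2 (3.02) and Mtf2 (2.63), and of PRC1 Phc1 (2.24), while the PRC1 subunit Bmi1 (-1.82) was lower. Of 27 BAF remodelling subunits 3 were higher, Actl6a (1.75), Smarcd1 (1.65) and Smarcc1 (1.18), and 2 lower, the ATPase Smarca2 (-2.35) and Smarcd3 (-1.21); the other ATPase, Smarca4, differed by 0.63. With the housekeeping median equal, 2 subunits were higher and 4 lower.

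**Figure D3:**
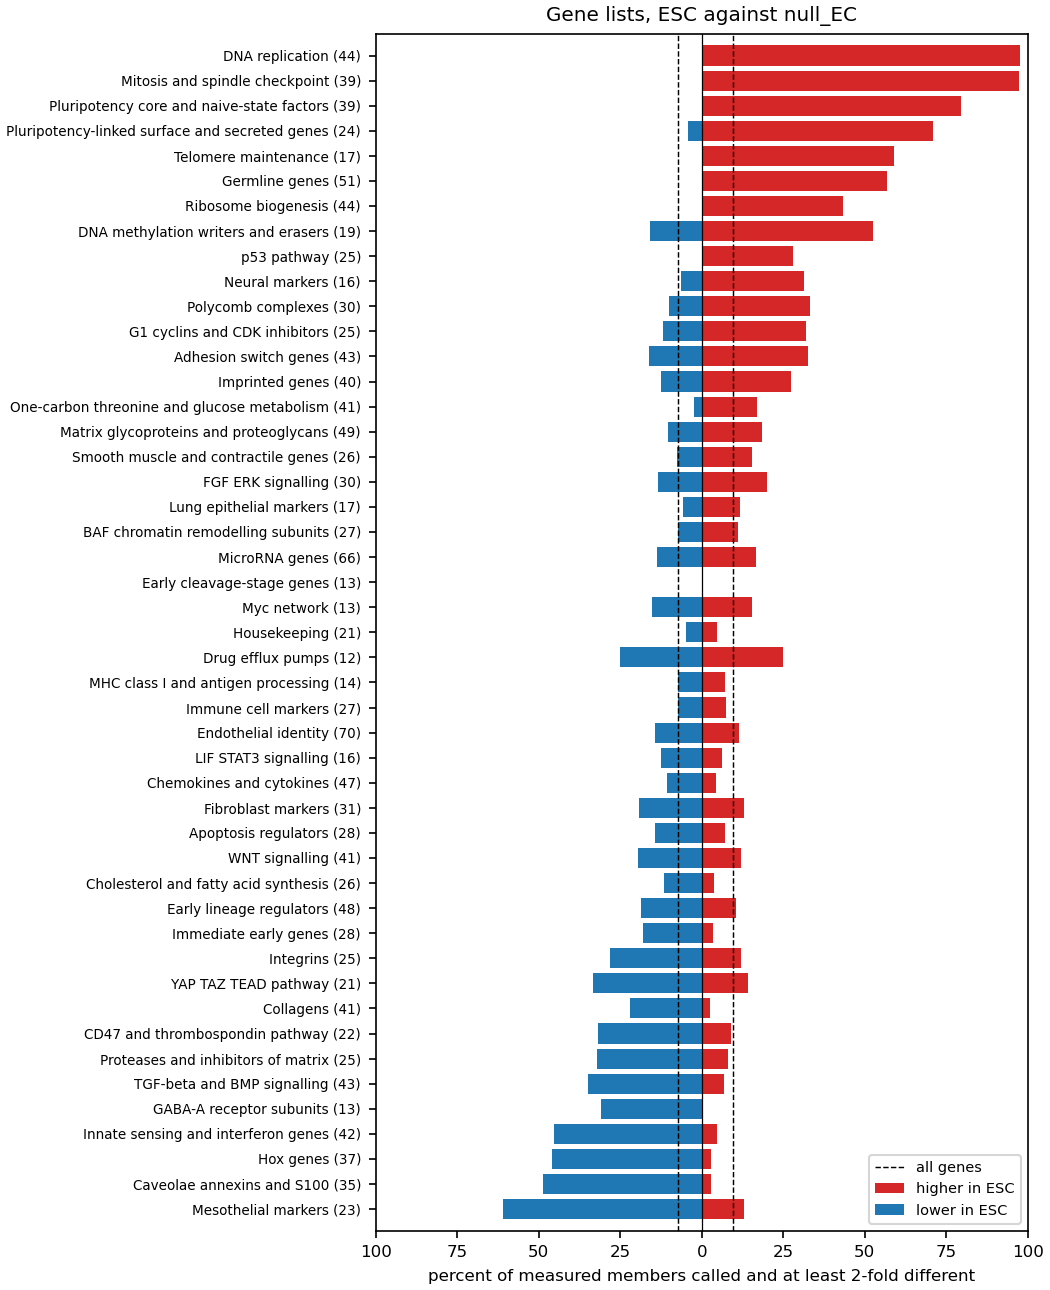
Percent of the measured members of each gene list that were called and at least 2-fold higher (red, right) or lower (blue, left) in ESC, with the number measured in parentheses; dashed lines give the same for all genes, 9.51% higher and 7.22% lower. Replication, mitosis and pluripotency lists reach furthest right, the mesothelial list furthest left, and the endothelial list has similar shares on both sides.

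The endothelial list did not move one way, although null_EC is labelled endothelial. Of 70 measured endothelial genes 10 were lower in ESC and 8 higher, with a median of -0.04, and 43 of the 70 had low signal in null_EC. Cdh5, the cadherin that defines endothelial junctions, had signals of 7.27, 7.11 and 7.09 on the null_EC arrays and 7.02, 6.96 and 6.94 on the ESC arrays, all low (log2 difference -0.19, SE 0.0667, adjusted p = 0.029); the call was lost without null_EC replicate 1 (-0.13, adjusted p = 0.114) or ESC replicate 3 (-0.17, adjusted p = 0.0728). In WT_EC it was 9.10, 6.85 and 9.52, so that 2 of the 3 wild-type arrays stood above every null_EC array. Pecam1 and Tek, known as Tie2, were higher in ESC than in null_EC, at 8.87, 8.87 and 8.84 against 6.57, 6.60 and 6.61 for Pecam1 and by 1.86 for Tek; stem cells are known to express Pecam1. Tie1 (0.12), Erg (-0.0021), Emcn (-0.071) and Clec14a (-0.10) were not called and had low signal in both. Other markers did have high signal in null_EC. Kdr, the VEGF receptor, stood at 10.83, 10.74 and 10.52 in null_EC and 6.98, 6.84 and 6.91 in ESC (13.8-fold lower in ESC, log2 difference -3.79, SE 0.0843, adjusted p = 4.99e-11), Thbd, thrombomodulin, at 12.01, 11.95 and 11.87 against 8.90, 8.69 and 8.89 (log2 difference -3.12, SE 0.0739, adjusted p = 7.5e-11), and endothelin, Edn1, at 10.79, 10.72 and 10.67 against 7.71, 7.57 and 7.66 (log2 difference -3.08, SE 0.0643, adjusted p = 3.46e-11). Cd34 was lower in ESC (-2.04). The largest increase on the list was Car4, a carbonic anhydrase of lung capillaries, at 12.22, 11.95 and 12.35 in ESC and 6.82, 7.06 and 7.01 in null_EC (log2 difference 5.21, SE 0.103, adjusted p = 2.34e-11), and Notch1 followed (2.30).

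Genes known from the mesothelium, the sheet of cells that covers the lung and body cavities, were for the most part higher in null_EC than in ESC. Of 23 mesothelial genes 14 were lower in ESC and 3 higher (median -1.54). Upk1b, an uroplakin, stood at 12.86, 12.96 and 12.90 in null_EC and 7.19, 7.25 and 7.02 in ESC (53.9-fold lower, log2 difference -5.75, SE 0.0721, adjusted p = 1.68e-12). Upk3b stood at 13.03, 13.06 and 13.04 and 7.83, 7.64 and 7.80 (log2 difference -5.29, SE 0.0663, adjusted p = 1.68e-12), and mesothelin, Msln, at 12.15, 12.03 and 12.22 and 7.85, 7.90 and 7.78 (log2 difference -4.29, SE 0.0691, adjusted p = 5.58e-12). None of these overlapped, and the ESC arrays had low signal. Gpm6a (-5.57), the transcription factor Bnc1 (-4.69), the mucin Muc16 (-4.67), Wt1 (-3.70) and Lrrn4 (-3.64) followed. WT_EC carried the same genes, with Upk3b at 11.06, 12.28 and 12.50 and Wt1 at 10.59, 11.15 and 10.67. The list's median per array was 10.75 to 11.15 in null_EC, 9.41 to 10.79 in WT_EC, 9.23 to 9.47 in null_EB and 7.85 to 7.90 in ESC. With Cdh5, Pecam1, Tie1, Erg and Emcn at low signal and Kdr, Cd34, Thbd and Edn1 not, the data go in part against the cell type in the label, and these cells are called null_EC below; what share of the cells carried which markers was not measured. In bulk RNA fewer cells of a type and less RNA per cell cannot be told apart. The 3 mesothelial genes higher in ESC were the keratins Krt18 (4.03) and Krt8 (1.53) and Cdh1, which early embryonic epithelium also makes.

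**Figure D4:**
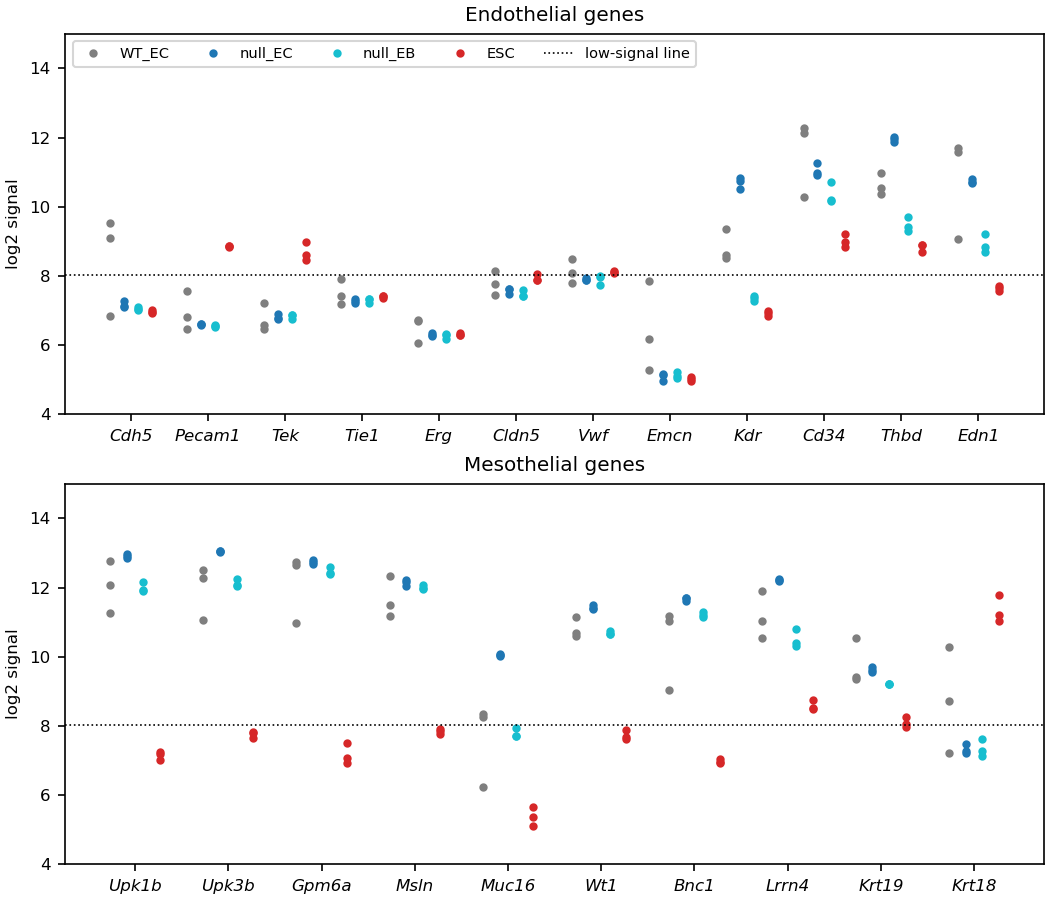
Log2 signal on each of the 12 arrays for 12 endothelial genes (top) and 10 mesothelial genes (bottom), 3 points a group; the dotted line is the low-signal value of 8.02. Most endothelial markers lie under the line in null_EC while the uroplakins, Msln, Wt1 and Bnc1 lie well above it in all groups but ESC.

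The remaining large decreases in ESC were of varied function. Aldh1a1, which makes retinoic acid, was the largest of all, at 13.11, 13.14 and 13.04 in null_EC and 6.50, 6.72 and 6.92 in ESC (83.6-fold lower, log2 difference -6.39, SE 0.0954, adjusted p = 4.21e-12). Pkhd1l1 (-6.24), the receptor phosphatase Ptprq (-6.04), transferrin, Trf (-5.82), and sciellin, Scel (-5.63), followed. The scramblase Plscr2 (-5.45), the semaphorin receptor Plxna4 (-4.93), the receptor Gpr39 (-4.82) and Cd200 (-4.65) completed the 15 largest decreases together with 5 mesothelial genes and Gabra3. Gabra3, a subunit of the GABA-A receptor, stood at 12.12, 12.32 and 12.23 against 7.63, 7.42 and 7.86 (log2 difference -4.58, SE 0.103, adjusted p = 5.28e-11); 4 of 13 GABA-A subunits were lower and 0 higher (1 without null_EC replicate 2 or ESC replicate 2), the others being Gabrb1 (-3.36), Gabra4 (-3.03) and Gabre (-1.64).

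Genes of other cell types had signal on the ESC arrays too. Of 31 fibroblast markers 4 were higher in ESC: Postn, periostin, at 11.73, 11.48 and 11.64 against 6.63, 8.06 and 6.72 (log2 difference 4.48, SE 0.298, adjusted p = 1.9e-07), Fbln1 (2.30), Thy1 (1.82) and Prrx1 (1.51). Another 6 were lower, among them decorin, Dcn (-2.54), and the collagens Col1a1 (-1.02) and Col1a2 (-1.56), yet Col1a1 still stood at 10.76, 11.05 and 10.56 and Pdgfrb at 9.61, 9.52 and 9.58 on the ESC arrays, and 7 of the 31 had low signal there. The list's median per array was 9.52 to 9.61 in ESC and 9.49 to 9.75 in null_EC. Of 26 smooth muscle genes 4 were higher, desmin, Des (2.54), Notch3 (2.43), Mcam (2.23) and Cnn1 (1.58), and 2 lower, led by Mylk (-3.88), or 1 lower without ESC replicate 2 or null_EC replicate 2; Acta2 was at 12.58, 12.54 and 12.63 in ESC and 12.77, 13.17 and 12.79 in null_EC. The labels name no other cells in the V6.5 cultures, and the part of any such cells in these values was not tested. Of 16 neural markers 5 were higher, led by Stmn2 (4.64), Neurod1 (3.37) and the neurofilament Nefl (3.12), and 1 was lower, Ncam1 (-2.24). Immune markers had low signal in 25 of 27 cases on the ESC arrays, with Ptprc (CD45) at 6.31, 6.21 and 6.33; of the 2 that were higher Laptm5 reached 9.66, 9.70 and 9.52. Lung epithelial markers gave 2 of 17 higher, Cdh1 and Epcam, and 1 lower, the lipid transporter Abca3 (-1.52); surfactant protein C, Sftpc, had low signal in both groups. The Y-linked genes Eif2s3y (9.55, 8.94 and 9.67) and Uty (9.69, 9.44 and 9.77) had signal on every ESC array, V6.5 being known as a male line, and were at 4.09, 4.05 and 4.17 and 5.04, 5.09 and 5.02 in null_EC. Kdm5d, also Y-linked, had low signal in both groups, at 6.37, 6.36 and 6.36 in ESC and 5.78, 5.74 and 5.80 in null_EC. It was called higher under 2-fold (0.59). Xist, the RNA of the inactive X, was lower in ESC but not at low signal, at 11.01, 10.72 and 11.06 against 13.17, 13.18 and 13.09 (log2 difference -2.22, SE 0.0877, adjusted p = 2.85e-09).

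Adhesion genes moved in both directions. Of 43 genes, 14 were higher and 7 lower in ESC (median 0.32). E-cadherin, Cdh1, stood at 11.80, 11.73 and 11.78 in ESC and 7.25, 7.09 and 7.17 in null_EC (24.3-fold higher, log2 difference 4.60, SE 0.0635, adjusted p = 2.81e-12), and N-cadherin, Cdh2, at 9.11, 8.93 and 9.13 against 12.27, 12.18 and 12.23 (8.98-fold lower, log2 difference -3.17, SE 0.0709, adjusted p = 5.08e-11). The epithelial splicing factor Esrp1 (4.86) and the tight junction claudin Cldn6 (4.29) were higher, and Zeb2 (-1.87), the repressor of Cdh1, was lower. Zeb1 and Snai1 differed by -0.83 and -0.40, Snai2 by 0.13, and vimentin, Vim, stayed high on both sides, at 13.11, 13.15 and 13.08 in ESC and 13.28, 13.37 and 13.34 in null_EC (adjusted p = 0.00773).

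Collagens, integrins and a mixed list of caveola, annexin, S100 and other genes gave more decreases than increases, matrix glycoproteins slightly more increases. Of 41 collagens 9 were lower and 1 higher, the basement membrane chains Col4a1 (-1.63), Col4a5 (-1.71) and Col4a6 (-1.82) among the former and Col18a1 (1.02) the latter; without ESC replicate 2 the count of higher collagens was 0, and without ESC replicate 3 or null_EC replicate 2 it was 2. Of 25 integrins 7 were lower, led by Itga1 (-2.65), the collagen receptor, and 3 higher, led by the laminin receptor Itga6 at 11.59, 11.45 and 11.65 against 9.52, 9.07 and 9.36 (log2 difference 2.25, SE 0.106, adjusted p = 1.17e-08); Itga4 (1.96) and Itga8 (1.08) were the others. The laminin chain of the early embryo, Lama1, was higher by 1.81, as were glypican 3, Gpc3 (3.10), and versican, Vcan (2.48), so that 9 of 49 matrix glycoproteins were higher and 5 lower; with the housekeeping median equal 9 were higher and 9 lower, and with the median of all genes equal 9 and 8. Of 25 matrix proteases and inhibitors 8 were lower, with Timp3 (-2.85) and Mmp14 (-1.79), and 2 higher, Mmp3 (1.96) and Mmp13 (1.26), or 0 higher in the fit to all 12 arrays. A mixed list of caveola, annexin, S100 and other genes gave 17 of 35 lower and 1 higher (median -0.87). Annexin A1, Anxa1, was at 9.73, 9.95 and 9.77 against 12.20, 12.35 and 12.29 (log2 difference -2.46, SE 0.0741, adjusted p = 3.75e-10), and Cavin3 was lower by -2.02. Lgals3 (-2.29), Ahnak, Ahnak2, Cd63, Cd151, Lmna and Emp3, which belong to none of the 3 named kinds, are among the 17. Of the S100 genes on the list only S100a16 (-1.76) was lower at 2-fold. Cav1 (-0.41), Cav2 (-0.41) and Cav3 (-0.19) were called lower under 2-fold. Emp1, also of another kind, was the 1 that was higher (1.24).

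TGF-beta and BMP genes gave more decreases than increases. Of 43 genes, 15 were lower and 3 higher (median -0.49). The direct BMP targets Id1 (-1.85) and Id3, the ligands Bmp4 and Bmp6 (-2.17) and the inhibitor Smad6 (-2.77) were all lower. Id3 was at 7.82, 7.97 and 7.54 in ESC and 10.58, 10.58 and 10.64 in null_EC (log2 difference -2.82, SE 0.0977, adjusted p = 1.08e-09), whereas Id2 differed by -0.72. The receptors Tgfbr2 (-2.27) and Tgfbr3 (-2.28) were lower, and Eng (1.62), Bmp7 (1.39) and Inhba (1.24) higher. Of 30 FGF and ERK genes 6 were higher and 4 lower. Fgf4, the ligand that stem cells make for themselves, was at 11.07, 11.20 and 10.91 against 7.71, 7.82 and 7.77 (log2 difference 3.29, SE 0.079, adjusted p = 8.14e-11), and the ERK-responsive factors Etv1 (2.82) and Etv5 (2.76) were higher, while Fgf2 (-3.000) and the phosphatase Dusp4 (-1.69) were lower. Of 16 genes of the LIF pathway 1 was higher, Socs2 (2.49), and 2 lower, Stat3 and Il6ra (-1.23). Stat3 was at 10.49, 10.43 and 10.53 in ESC and 11.70, 11.63 and 11.61 in null_EC (log2 difference -1.16, SE 0.0603, adjusted p = 2.51e-08), with Lifr at 0.91. For the feedback target Socs3 the 2 probe sets were called in opposite directions (0.32 and -0.22), so no direction is given.

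Of 41 WNT genes 5 were higher and 8 lower: the inhibitor Sfrp2 (3.09) and the nuclear factors Lef1 (2.27) and Tcf7l1 (1.11) against Rspo1 (-2.81), the receptors Lgr5 (-2.19) and Fzd1 (-2.15) and the target Axin2 (-1.10); with the housekeeping median equal 3 were higher and 12 lower. Of 21 genes of the YAP and TEAD pathway 7 were lower and 3 higher, or 10 and 1 with the housekeeping median equal. The DNA-binding partners split: Tead2, the form of early embryos, was at 11.13, 11.05 and 11.17 against 8.98, 8.74 and 8.82 (log2 difference 2.27, SE 0.0737, adjusted p = 6.62e-10) and Tead4 was higher by 1.01, while Tead1 differed by -0.42; the coactivator Wwtr1 (TAZ) was lower (-1.15) and Yap1 was not called (-0.017).

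Lineage regulators act when pluripotency is lost. Of 48, 9 were lower in ESC and 5 higher, and 30 had low signal in both groups. Gata6, which opposes Nanog in the early embryo, was at 8.74, 8.41 and 8.41 in ESC and 12.61, 12.57 and 12.55 in null_EC (16.6-fold lower, log2 difference -4.06, SE 0.0891, adjusted p = 4.68e-11). Pax3 (-3.34), Emx2 (-3.01), Runx1 (-2.93) and Gata4 (-2.41) were lower too. In ESC, Zic2 (2.93), Nes (2.12) and Eomes (1.43) were higher, while Sox17 of endoderm (-0.072) and Cdx2 of trophoblast (-0.14) stayed under 2-fold, at low signal. Of 37 Hox genes, which record position along the body axis, 17 were lower, 1 higher (Hoxc8, 1.16; 0 without ESC replicate 3) and 15 had low signal in both groups; the median was -0.74. Hoxa5, a lung patterning gene, was at 6.95, 7.22 and 7.67 against 9.81, 9.89 and 9.77 (log2 difference -2.54, SE 0.144, adjusted p = 5.13e-08), and Hoxd4 (-2.40), Hoxc13 (-2.33) and Hoxd8 (-2.29) came next. Of these 17 genes all but Hoxc13 carry a number from 2 to 9. This range was read off the called genes, and its share among all 37 measured Hox genes was not counted. No positional pattern is drawn from it.

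Genes of innate sensing were lower in 19 of 42 cases and higher in 2 (median -0.63). Tlr4, the endotoxin receptor, was at 5.85, 5.90 and 5.69 in ESC and 9.66, 9.54 and 9.56 in null_EC (13.7-fold lower, log2 difference -3.78, SE 0.0719, adjusted p = 1.84e-11). The RNA sensor Ifih1 (-2.05), the adaptor Sting1 (-1.75) and interferon-induced genes such as Oas2 (-1.83) and Ifit1 (-1.77) were lower, while the sensor Ddx58 (RIG-I) was not called (-0.033). Ifitm1, which stem cells are known to express, was higher by 2.51. MHC class I and its processing genes gave 1 of 14 each way, Psmb10 (1.32) and Tapbp (-1.36), and B2m was called lower (-0.44). Of 47 chemokines and cytokines 5 were lower, among them Il18 (-2.999) and Vegfa (-1.65), and 2 higher (1 without ESC replicate 3); with the housekeeping median equal 9 were lower and 0 higher. Of 28 immediate early genes 5 were lower, led by Fosl2 (-1.61), and 1 was higher, Ptgs2 (1.05); the higher count was 0 without null_EC replicate 3 and 2 without null_EC replicate 1 or ESC replicate 3. Of 25 p53 pathway genes 7 were higher and 0 lower, led by the mitotic proteins Ckap2 (4.17) and Gtse1 (2.79) and the receptor Eda2r (2.72); Mdm2 differed by 0.47. The list of apoptosis regulators gave 4 of 28 lower, among them Casp8 (-1.34), Bcl2 (-1.28) and Mlkl (-2.06), a gene of necroptosis. Another 2 were higher, Birc5 (2.80) and Apaf1 (1.27).

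Imprinted genes, expressed from 1 parental copy, gave 11 of 40 higher and 5 lower. The amino acid transporter Slc38a4 was at 12.20, 12.22 and 12.15 in ESC and 6.95, 7.05 and 7.05 in null_EC (36.1-fold higher, log2 difference 5.17, SE 0.0605, adjusted p = 1.25e-12), and Zdbf2 (4.25), Phlda2 (4.21) and Mest (3.99) came next. Airn (-2.58), Osbpl5 (-1.45), Sgce (-1.33), Grb10 (-1.02) and Xist were lower. For Xist, given above beside the Y-linked genes, imprinting and the sex of the cells cannot be told apart here. Peg3, Igf2 and H13 differed by less than 2-fold (0.74, 0.36 and -0.97). Of the cluster on chromosome 12, whose non-coding RNA Meg3 is made from the maternal copy, Meg3 stood at 11.10, 11.19 and 11.06 in ESC and 7.66, 7.91 and 7.67 in null_EC (10.3-fold higher, log2 difference 3.37, SE 0.0793, adjusted p = 7.15e-11). All 48 measured genes from Dlk1 to Dio3, looked up after the values of Meg3 had been seen, gave 17 higher at 2-fold and 0 lower (median 0.84), 38 called higher at any size and 1 lower. Meg3 itself is counted in the 17. Most of the 17 had low signal in both groups, which Meg3, Rian and Dlk1 did not. The noncoding Rian (2.42) and the paternally expressed Dlk1 (1.89) were higher, whereas Rtl1 (-0.21) was called lower and Dio3 (0.16) stayed under 2-fold. Genes of this cluster share transcripts and are not independent.

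In metabolism, 7 of 41 genes of one-carbon, threonine and glucose use were higher and 1 lower. Gldc, the glycine cleavage enzyme, stood at 10.73, 10.88 and 10.54 against 6.46, 6.46 and 6.50 (18.9-fold higher, log2 difference 4.24, SE 0.0827, adjusted p = 2.16e-11), Upp1, uridine phosphorylase, was higher by 4.82, the arginine transporter Slc7a3 by 4.22 and the folate enzyme Shmt1 by 2.23. Aldh1l2 was lower (-3.33). The mitochondrial folate enzymes Shmt2 (-0.13) and Mthfd2 (-0.17) and glycolytic Hk1 (-0.10, and 0.39 on its other probe set) and Aldoa (0.16) stayed under 2-fold. Of 26 cholesterol and fatty acid genes 1 was higher, the elongase Elovl6 (1.94), and 3 lower, Scd1 (-1.25), Scd2 (-1.29) and Sc5d (-1.22), but 7 were lower without null_EC replicate 2 and 6 without ESC replicate 2. Drug pumps gave 3 of 12 each way, with Abcc4 (2.27) and Abcg2 (1.33), the side-population pump of stem cells, higher and the cholesterol exporter Abca1 (-2.63) and the P-glycoprotein genes Abcb1a (-1.06) and Abcb1b (-1.32) lower.

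The 2 probe sets of Cd47 itself did not give the same result. The brighter one, kept for the gene, stood at 11.23, 10.96 and 11.33 in ESC and at 10.97, 11.11 and 11.02 in null_EC, values that overlap, and was not called (log2 difference 0.14, SE 0.0916, adjusted p = 0.194), though it was called higher without ESC replicate 2 (0.25, adjusted p = 0.00946); in WT_EC it was 12.59, 11.29 and 12.48 and in null_EB 10.99, 10.89 and 10.93. The other probe set stood at 9.51, 9.56 and 9.45 in ESC and 9.88, 9.88 and 9.82 in null_EC, with no overlap, and was called lower in ESC under 2-fold (log2 difference -0.36, SE 0.0593, adjusted p = 0.000364 with limma over all 21789 probe sets of 1 gene). Which exons either probe set covers is not given in the sources used here, so the probes may read parts of the message that the null allele still makes, and intact message cannot be told apart from those. Of 22 genes of the CD47 and thrombospondin pathway 7 were lower in ESC and 2 higher, the integrins Itga4 and Itga6. The cGMP-dependent kinase Prkg1, which acts downstream of nitric oxide, was at 7.27, 7.16 and 7.23 against 10.31, 10.23 and 10.23 (log2 difference -3.03, SE 0.0608, adjusted p = 2.56e-11), and Prkg2 (-2.56, but -0.27 on its other probe set), the guanylate cyclase subunit Gucy1a1 (-1.85) and Lrp1 (-1.63) were lower as well. The ligand Thbs1 was higher by 0.86, under 2-fold, and the counter-receptor Sirpa was not called (0.13).

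MicroRNA genes were read from probe sets over the hairpin loci, which pick up the long primary transcript and not the mature RNA, and 49 of 66 had low signal in both groups. At 2-fold 11 were higher and 9 lower, or 4 and 5 where genes not above the olfactory receptor genes were left out. Mature sequences are given for loci of the clusters and families described here, which include the largest changes in both directions, to show which of them share a seed (RefSeq, GRCm38.p6; capitals mark the seed, bases 2 to 8), and 63 of the 66 genes had one. Not shown are Mir363, Mir200b, Mir29a and Mir31, which were also past 2-fold and have other seeds. Mir302a (1.76), Mir143 (-1.05) and Mir145a (-1.84) were past 2-fold as well and are not shown either.
mmu-miR-302b-3p: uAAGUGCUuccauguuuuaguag
mmu-miR-302d-3p: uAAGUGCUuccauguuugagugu
mmu-miR-302c-3p: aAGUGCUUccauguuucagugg
mmu-miR-20a-5p: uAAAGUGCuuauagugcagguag
mmu-miR-106a-5p: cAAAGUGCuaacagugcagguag
mmu-miR-18a-5p: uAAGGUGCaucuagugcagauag
mmu-miR-19a-3p: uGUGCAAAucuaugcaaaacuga
mmu-miR-19b-3p: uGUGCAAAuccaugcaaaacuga
mmu-let-7c-5p: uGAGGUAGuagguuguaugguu
mmu-miR-99a-5p: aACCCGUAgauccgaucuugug
mmu-miR-100-5p: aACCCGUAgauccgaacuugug
mmu-miR-10a-5p: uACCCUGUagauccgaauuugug
mmu-miR-10b-5p: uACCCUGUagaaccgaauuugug
The forms miR-302b and miR-302d share the seed AAGUGCU, and miR-20a and miR-106a the seed AAAGUGC; both families are known to act on the stem cell cycle. Mir302b, on chromosome 3, was at 7.26, 7.03 and 7.61 in ESC and 3.92, 4.01 and 3.95 in null_EC (log2 difference 3.34, SE 0.119, adjusted p = 1.35e-09), and its cluster neighbours Mir302c (2.73), Mir302a (1.76) and Mir302d (1.52) were higher, with Mir367 called higher under 2-fold (0.98). Even in ESC these 5 loci lay under the low-signal value. On chromosome 14 Mir18 (2.46) and Mir19a (2.45), which carries the seed GUGCAAA together with miR-19b, led their cluster, and Mir17 was higher by 0.69, under 2-fold. On the X chromosome Mir363 (1.96) and Mir106a (1.19) were higher. Clustered hairpins share a transcript, so these are fewer than 11 independent loci.

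In the other direction stood let-7c and miR-99a, neighbours on chromosome 16 (chr16:77599672-77599693 and chr16:77598940-77598961 for the printed forms). Mirlet7c-1 was at 4.90, 4.84 and 4.73 in ESC and 9.14, 9.36 and 9.003 in null_EC (20.3-fold lower, log2 difference -4.35, SE 0.0908, adjusted p = 3.46e-11) and Mir99a at 5.54, 5.50 and 5.38 against 9.30, 9.58 and 9.33 (log2 difference -3.93, SE 0.084, adjusted p = 4.05e-11), with no overlap for either. Mir100 (-1.29) carries the same seed as miR-99a, ACCCGUA, and Mir10a (-2.03) and Mir10b (-2.52), which lie within the Hox clusters and share the seed ACCCUGU, were lower too. Other let-7 loci stayed under 2-fold: Mirlet7e differed by -0.89, Mirlet7a-1 by -0.39, Mirlet7i by -0.20 and Mirlet7g by 0.018.

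**Figure D5:**
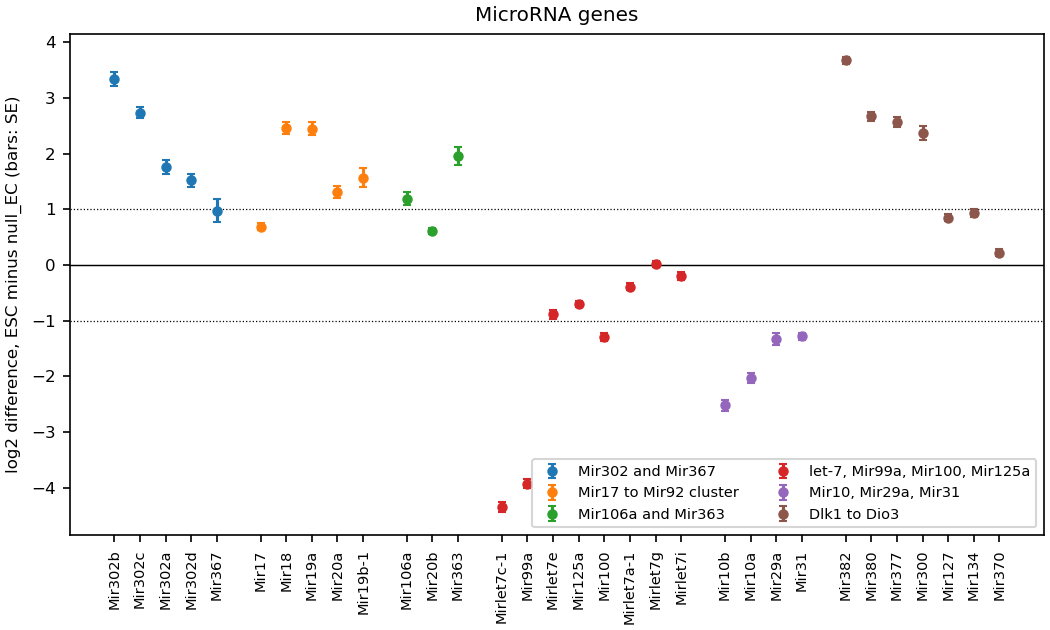
Log2 difference between ESC and null_EC, with its SE from the fit to 6 arrays, for microRNA genes grouped by cluster or seed family; dotted lines mark 2-fold. The clusters of Mir302, Mir17 and Mir106a lie above 0, Mirlet7c-1 and Mir99a lie furthest below, and the plotted genes from Dlk1 to Dio3, chosen after their values were seen, range from 0.22 to 3.68.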

How the data were processed

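The authors' deposited table held log2 expression values of 35556 probe sets on 12 Affymetrix arrays, made with Expression Console 1.2.1 and RMA per the submitters' processing notes; the genome build is not given in the sources used here. Per the labels' protocols, total RNA was extracted with TRIzol and amplified with a whole-transcript kit; the protocol names a human array, but the probe sets are those of the mouse platform. The files give no counts, so the number of arrays limits the precision.

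The platform annotation named 1 gene for 21789 probe sets, several for 1621 and none here for 12146. Of the 999 genes with more than 1 probe set the brightest by mean over the 12 arrays was kept. The 6 arrays were fitted with limma 3.58.1 (lmFit and eBayes) in R 4.3.3, with Benjamini-Hochberg adjusted p-values over all 19938 genes; the design has no covariates. An exact permutation of 3 against 3 arrays could not go below p = 0.1. The scripts were tested on simulated data.

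The members and gene lists were chosen with earlier results of these data known. Named were 7 fixed genes, the 15 largest increases and the 15 largest decreases among established gene names, and in each list the defining members and up to 4 called 2-fold changes in each direction. Alpl, Bmp6, Fut9, Lama1, Lin28b, Lrp1, Mir100, Mir106a, Mir363, Prdm1 and Runx1 were named after their values were seen. Alternatives covered the arrays fitted, the block, the prior, array weights, filters on dim genes, probe sets, scaling and left-out arrays. The labels give no pairing of the samples, and the replicate numbers were not used as pairs in the main fit. Deviations from the group mean correlated at -0.0091, -0.15 and -0.15 for same-numbered arrays and from -0.065 to 0.17 for the others. Such deviations sum to 0 within a group, so these values cannot show whether samples were paired.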

Additional observations from a re-analysis of the deposited data

Results flagged for a closer look

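Signal that differed between the groups was also found on probe sets outside the comparison of genes, each tested in its own fit with limma. Of 12146 probe sets without a gene here, 370 were called and at least 2-fold higher in ESC (3.05%) and 825 lower (6.79%). Of 1621 probe sets that match several genes, 163 were higher (10.1%) and 77 lower (4.75%). Among the latter kind, looked up after their values were seen, 3 probe sets of the Zscan4 family, which marks a passing state of stem cells with features of the early embryo, were higher by 2.02, 1.86 and 1.82 on the log2 scale. The probe set of Cdkn1a, the CDK inhibitor known as p21, which also matches a neighbouring transcript, was higher by 1.43. The interferon-induced Isg15 shared its probe set with another gene and was lower (-0.61). Groups of 3 arrays were not tested for outlying samples.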

How the results depend on the processing

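Of the 3336 genes called at 2-fold or more, 3336 kept their direction and an adjusted p below 0.05 in each fit that left out 1 array. All 3336 also did so with array weights, an intensity trend, each scaling and the mean of all probe sets. With all 12 arrays in one fit 3288 did, and 3310 and 3253 under the filters on dim genes, which leave out the others. In these fits 0 changed direction. These counts do not ask for the 2-fold size again. With the housekeeping median equal, 1502 genes were higher and 1949 lower at 2-fold. With the replicate number as a block, 1896 higher and 1440 lower genes were called at 2-fold, as without it, and 5671 and 6967 at any size. With 1 array left out, genes called ranged from 11927 to 13106 (higher 5480 to 5839, lower 6447 to 7267) and those at 2-fold from 3317 to 3355 (higher 1884 to 1916, lower 1415 to 1452). With the 2-fold threshold inside the test (limma treat), a stricter question by construction, 2431 genes were called, 1414 higher and 1017 lower. With the housekeeping median equal, 11356 genes were called lower, and Nos3 (-0.0045), Psmb9 (-0.0086), Ldha (-0.025) and Rrm1 (-0.044) changed sign; their differences were smaller than the shift itself. Some small list counts moved with this scaling: cholesterol genes lower went from 3 to 7, Polycomb genes lower from 3 to 6 and YAP pathway genes higher from 3 to 1. Of the named genes, 27 had several probe sets: 0 gave 2-fold calls in both directions, but 3 were called in opposite directions (Eed, Irf1 and Socs3), 5 reached 2-fold on some probe sets only (Cdkn1b, Eed, Fbl, Irf1 and Prkg2) and 2 were called on some only (Cd47 and Hk1). RMA values carry no detection call, so differences of low-signal genes may be understated.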

Other observations

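Gene families not counted as such above were looked up after their values were seen, so their counts are a description. Some of their members, such as Plxna4, Kif11, Smc1b and Stag3, also belong to the genes or lists above. These counts are thus not independent of the earlier ones. Of 21 genes of condensin, cohesin, the related SMC proteins and shugoshin, which fold and pair chromosomes, 13 were higher in ESC at 2-fold and 0 lower (median 2.05, log2), with Ncapg, a condensin subunit, at 11.55, 11.34 and 11.69 in ESC and 6.24, 6.77 and 6.33 in null_EC. Kinesins, the microtubule motors, gave 15 of 38 higher and 2 lower, and the family median was 0.069. Of 22 beta protocadherins, adhesion molecules known from neurons, 8 were lower and 0 higher (median -0.53), and Pcdhb16 was lower by 3.90 on the log2 scale.

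Of 22 complement genes 6 were lower in ESC and 1 higher; the protease genes C1s1 (-4.42) and C1ra (-2.83) and the component C2 (-2.13) lay furthest down. Of 29 semaphorins and plexins, guidance molecules and their receptors, 8 were lower, with Plxna4 (-4.93) and Sema3d (-2.92), and 2 higher, with Sema6a (3.13). Aldehyde dehydrogenases gave 6 of 21 lower and 1 higher.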
